A study of Mus musculus with 4 samples.

Results

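Transforming growth factor-β (TGF-β) and activin signaling was examined through 10 genes, of 22609 gene symbols counted in hippocampal RNA after global cerebral ischemia (GCI). The genes were taken by symbol: the ligands Tgfb1, Tgfb2, Tgfb3 and Inhba, the activator of latent ligand Thbs1, the receptors Tgfbr1 and Tgfbr2, the transducer Smad3, the inhibitor Smad7 and the target gene Tgfbi. Each of them was counted in every library, and all 10 passed the filter on low counts. They were picked by name, with no threshold on a measured value, but with earlier results of these data known. The same holds for the gene lists used below.

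The data were 4 RNA-Seq libraries of mouse hippocampus, with 2 of each group, FLOX+GCI and FBN-ARO-KO+GCI. In FBN-ARO-KO mice a Cre recombinase under the CaMKIIα promoter deletes Cyp19a1, the gene of the estrogen-making enzyme aromatase, in excitatory neurons of the forebrain, and FLOX mice are their controls. All mice of both groups were females 3 to 5 months old, ovariectomized 1 week before GCI, with both carotid arteries occluded for 20 min and tissue taken after 24 h of reperfusion. No sham-operated library is among them, so each value describes the ischemic hippocampus and not a response to ischemia. Whether the 2 libraries of a group came from separate mice is not stated, so p-values measure only the spread between these samples, which may be technical. Since the tissue is a mixture, fewer cells of a type and less RNA per cell cannot be told apart.

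TGF-βs are secreted in a latent form that has to be released from its propeptide before it can bind a type II receptor, which then recruits and phosphorylates a type I receptor. The type I receptor phosphorylates the transducers Smad2 and Smad3, which enter the nucleus with Smad4, and Smad7 is induced in turn and blocks the receptor. Activins, dimers of inhibin β subunits, use receptors of their own but the same Smad2 and Smad3. In the brain, TGF-β1 is known as a signal of microglia and astrocytes after injury, TGF-β2 as a ligand of neurons and glia, and activin A as a factor that protects neurons after injury.

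Tgfb1 and Tgfb2 are shown first as sequences because these related ligands lay on opposite sides in the comparison of genotypes and their transcripts differ most in base composition among the 3 TGF-β ligands. The last 50 codons before the stop encode the C-terminal end of the mature growth factor, and over these 150 bases, aligned without a gap, 103 bases (68.7%) were identical between the genes and are in capitals (GENCODE M1 transcripts of mm9).
Tgfb1: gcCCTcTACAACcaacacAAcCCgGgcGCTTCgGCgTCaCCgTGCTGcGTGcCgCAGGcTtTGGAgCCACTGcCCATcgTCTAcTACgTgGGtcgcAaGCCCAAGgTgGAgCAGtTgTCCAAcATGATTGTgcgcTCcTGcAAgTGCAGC
Tgfb2: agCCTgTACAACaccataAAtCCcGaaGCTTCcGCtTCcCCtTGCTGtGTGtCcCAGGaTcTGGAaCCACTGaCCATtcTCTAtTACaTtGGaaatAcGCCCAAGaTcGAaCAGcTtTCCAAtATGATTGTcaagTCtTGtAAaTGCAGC
The stretch held 62.0% G and C in Tgfb1 and 46.0% in Tgfb2, and the whole longest coding transcript 62.5% and 47.5%.

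For 7 of the 10 genes, promoters from RefSeq were examined (build GRCm38.p6, 250 bases before to 50 after the start), with 2 for Tgfbr1. No promoter of Tgfb3, Thbs1 or Smad7 was examined, which does not show that RefSeq lacks one. The promoters were searched on both strands for GTCTG, a short form of the Smad-binding element, and for TGANTCA, the AP-1 site. GTCTG was in 49.6% of 32851 promoters of the same length and TGANTCA in 7.81%. Tgfb2 and Tgfbi held GTCTG 2 times each, and Tgfbr2 and 1 promoter of Tgfbr1 held it 1 time. It was not found in the windows of Tgfb1, Inhba and Smad3, and TGANTCA was found in none of the 8. The 250 bases before the start are given for the ligands Tgfb1 (chr7:25686752-25687001, plus strand) and Tgfb2 (chr1:186705990-186706239, minus strand) and for the target gene Tgfbi (chr13:56609336-56609585, plus strand), since the genotypes did not overlap for these genes, with Tgfb1 and Tgfbi lower and Tgfb2 higher in FBN-ARO-KO+GCI. Of all genes tested, 51.8% did not overlap either. The sequences are written 5′ to 3′ on the strand of the gene, with GTCTG or its reverse complement in capitals.
Tgfb1: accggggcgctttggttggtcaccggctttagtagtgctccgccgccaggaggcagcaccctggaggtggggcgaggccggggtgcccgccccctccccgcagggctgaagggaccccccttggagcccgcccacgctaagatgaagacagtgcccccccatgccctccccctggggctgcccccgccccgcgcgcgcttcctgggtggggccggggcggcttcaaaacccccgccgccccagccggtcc
Tgfb2: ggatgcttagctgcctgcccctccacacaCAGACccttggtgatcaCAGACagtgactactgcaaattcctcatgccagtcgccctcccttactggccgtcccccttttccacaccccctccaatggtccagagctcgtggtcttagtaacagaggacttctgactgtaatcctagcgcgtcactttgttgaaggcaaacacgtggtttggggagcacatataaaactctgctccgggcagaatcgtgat
Tgfbi: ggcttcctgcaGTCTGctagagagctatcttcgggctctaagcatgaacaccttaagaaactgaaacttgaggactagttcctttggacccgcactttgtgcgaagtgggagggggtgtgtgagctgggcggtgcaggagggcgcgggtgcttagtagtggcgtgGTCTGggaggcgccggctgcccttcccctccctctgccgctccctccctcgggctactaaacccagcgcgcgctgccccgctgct
The share of G and C in these bases was 75.2% for Tgfb1, 53.6% for Tgfb2 and 62.4% for Tgfbi.

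Reads on genes totaled 24333396 to 24774433 in FLOX+GCI and 30114003 to 33076795 in FBN-ARO-KO+GCI. Levels are given as CPM, counts scaled by library size with TMM factors, and 3 counts, the smallest number taken to show a gene, correspond to 0.0907 to 0.123 CPM, a limit that covers counting error only. For Cyp19a1 itself the 4 libraries, FLOX+GCI first, held 4, 1, 2 and 2 counts, which is too few to check the labels. Summed markers of excitatory neurons lay between 7244 and 7560 CPM in all libraries, and all 5 were tested. FLOX+GCI replicate 2 stood apart in injury genes, with a summed level of 932 CPM for a list of 8 against 403 to 569 CPM in the other libraries. Genotypes were compared over 14527 genes with edgeR's quasi-likelihood test and Benjamini-Hochberg adjustment, and a gene with an adjusted p under 0.05 is termed called. Only 2 genes were called, 0.0138% of those tested, and 2403 genes, 16.5%, had an unadjusted p under 0.05. With 2 libraries against 2, 0.333 is the smallest two-sided p that exact permutation allows for 1 gene. Fold changes were lower where the GC content of the transcript was higher: the median log2 fold change was 0.18 for genes under 45% GC and -0.25 for genes over 60%, and Spearman's rho across 13869 genes, which share the libraries and are not independent, was -0.55. Such a trend was also present between libraries of 1 genotype. For the difference of replicate 2 minus replicate 1, rho was -0.48 in FBN-ARO-KO+GCI and 0.10 in FLOX+GCI. A fit corrected for GC content and length is therefore given beside the fold changes, and its medians lay between 0.03 and 0.04 in each of the 5 classes of GC content.

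None of the 10 genes was called (smallest adjusted p = 0.238, edgeR's quasi-likelihood test), and DESeq2 called 0 of the 4 to which it gave an adjusted p (Tgfb2, Tgfbr1, Tgfbr2 and Smad3), with none given to the other 6, Tgfb1 and Tgfbi among them. By log2 fold change 5 were higher in FBN-ARO-KO+GCI, where 48.7% of all genes were, and 5 were lower, where 51.3% were, with a median of -0.01, the same as the median of all genes tested. Tgfb1 and Tgfbi, both lower, had an unadjusted p under 0.05, which is 20.0% of the 10 against 16.5% of all genes (8.72% higher and 7.82% lower), and 1 of these, Tgfbi, with the correction, against 11.4% of all genes. The count of 2 was 5 without FLOX+GCI replicate 2 and 1 without FBN-ARO-KO+GCI replicate 2. The groups were apart, with no overlap, for 3 of the 10 genes, Tgfb1 and Tgfbi lower and Tgfb2 higher, against 51.8% of all genes (25.9% higher and 25.8% lower). Wherever a gene is given below as without overlap, these shares of all genes apply. As counted, the largest difference was in the target gene Tgfbi and the next in the ligand Tgfb1, while with the correction Thbs1, at -0.69, came next to Tgfbi, at -0.70.

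**Figure D1:**
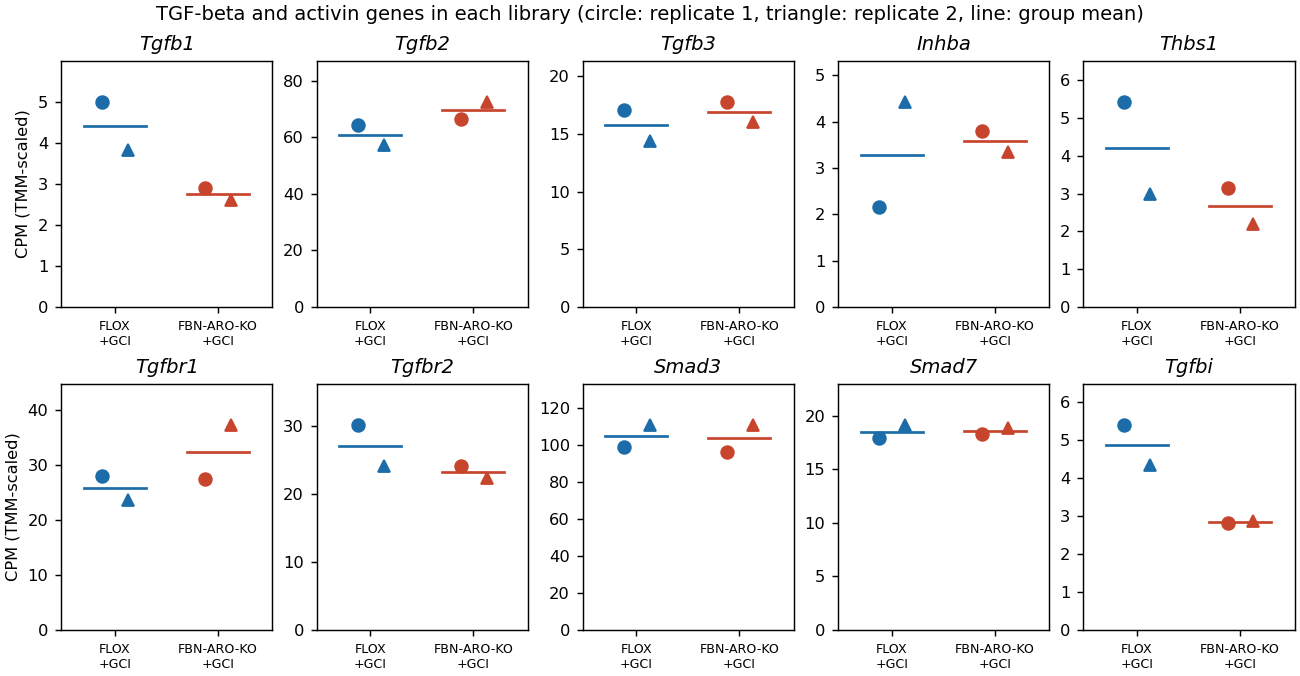
Level of each of the 10 genes in each library, in CPM scaled by TMM on an axis from 0, with FLOX+GCI in blue and FBN-ARO-KO+GCI in red, circles for replicate 1, triangles for replicate 2 and lines for group means. The groups are apart for Tgfb1, Tgfb2 and Tgfbi and overlap for the other 7 genes.

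Compared per length of exon, the levels in FLOX+GCI spanned from Smad3 at 18.9 ± 1.52 CPM per kb (SD, n = 2) to Thbs1 at 0.694 ± 0.282 CPM per kb (SD, n = 2). Tgfb2, at 12.5 ± 1.03 CPM per kb (SD, n = 2), was the most abundant of the 4 ligands. Over the 4 libraries Smad3 lay at 17.4 to 20.0 CPM per kb, above Tgfb2 at 11.8 to 14.97, and both were above every other gene of the 10. Then came Tgfb3 at 4.26 to 5.25, Smad7 at 3.96 to 4.23, Tgfbr1 at 3.61 to 5.70 and Tgfbr2 at 2.76 to 3.72 CPM per kb. The ranges of Tgfb3, Smad7 and Tgfbr2 did not overlap one another, while that of Tgfbr1 overlapped all 3 of them, so that the place of Tgfbr1 in the order cannot be told beyond its spread. Tgfb1 at 1.01 to 1.95, Inhba at 1.09 to 2.23 and Tgfbi at 0.946 to 1.82 CPM per kb overlapped each other. Thbs1, at 0.360 to 0.894 CPM per kb, lay below all of them.

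Among the ligands, Tgfb1 (chr7:26472021-26490096, plus strand, mm9) encodes the TGF-β isoform known for its actions on microglia and on scar tissue. Its counts were 125 and 94 for FLOX+GCI against 96 and 76 for FBN-ARO-KO+GCI, which is 4.99 and 3.81 CPM in FLOX+GCI replicates 1 and 2 and 2.90 and 2.59 CPM in FBN-ARO-KO+GCI replicates 1 and 2. Both FBN-ARO-KO+GCI libraries lay below both FLOX+GCI libraries. The means were 4.40 ± 0.831 CPM in FLOX+GCI and 2.75 ± 0.213 CPM in FBN-ARO-KO+GCI (SD, n = 2 each). The fitted log2 fold change was -0.68 (SE 0.23, 95% interval -1.21 to -0.15), a fitted level of 0.625 times that of FLOX+GCI, with an adjusted p of 0.248 (edgeR). Corrected for GC content and length it was -0.38 (adjusted p = 0.537, edgeR), and its unadjusted p was then over 0.05. Without each library in turn it lay between -0.86 and -0.47.

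Tgfb2 (chr1:188447065-188529871, minus strand, mm9), the most abundant ligand, was counted 1609 and 1409 times for FLOX+GCI against 2209 and 2123 times for FBN-ARO-KO+GCI. These were 64.2 and 57.2 CPM in FLOX+GCI replicates 1 and 2 and 66.6 and 72.5 CPM in FBN-ARO-KO+GCI replicates 1 and 2. Both FBN-ARO-KO+GCI libraries lay above both FLOX+GCI libraries. Its log2 fold change was 0.20 (SE 0.09, 95% interval -0.02 to 0.41, adjusted p = 0.331, edgeR) and 0.14 with the correction, and it was 0.11 without FLOX+GCI replicate 2. The interval reaches 0, and the difference did not pass the test.

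Tgfb3 (chr12:87397694-87419991, minus strand, mm9), the third isoform, was at 17.1 and 14.4 CPM in FLOX+GCI replicates 1 and 2 and 17.8 and 16.0 CPM in FBN-ARO-KO+GCI replicates 1 and 2. The groups overlapped, with replicate 1 above replicate 2 in each. Its log2 fold change of 0.10 (95% interval -0.21 to 0.42, adjusted p = 0.717, edgeR) was 0.17 with the correction and turned to -0.02 without FLOX+GCI replicate 2, and its sign is not settled by these libraries.

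Inhba (chr13:16103684-16119044, plus strand, mm9) encodes the inhibin βA subunit, of which activin A is the dimer and which neurons induce with activity and injury. The counts were 54 and 109 for FLOX+GCI against 126 and 98 for FBN-ARO-KO+GCI, or 2.16 and 4.42 CPM in FLOX+GCI replicates 1 and 2 and 3.80 and 3.35 CPM in FBN-ARO-KO+GCI replicates 1 and 2. The FLOX+GCI libraries were the lowest and the highest of the 4, and both FBN-ARO-KO+GCI libraries lay between them. The log2 fold change was 0.12 (SE 0.33, 95% interval -0.66 to 0.90, adjusted p = 0.873, edgeR), with the widest interval of the 10 genes, and 0.27 with the correction. It was -0.30 without FLOX+GCI replicate 1 (adjusted p = 0.614, edgeR) and 0.73 without FLOX+GCI replicate 2 (adjusted p = 0.325, edgeR). The higher of the FLOX+GCI values is in replicate 2, the library with the high injury genes, and the part of this in the value was not tested.

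The other activin-like ligands, a list of 9, included 5 that were tested, of which 2 were higher and 3 lower and none was called. Inha, the α subunit that turns an activin dimer into an inhibin, was at 10.7 and 11.0 CPM in FLOX+GCI replicates 1 and 2 and 8.63 and 7.92 CPM in FBN-ARO-KO+GCI replicates 1 and 2. Both FBN-ARO-KO+GCI values lay below both FLOX+GCI values, as for 25.8% of all genes, with a log2 fold change of -0.38 (SE 0.14, adjusted p = 0.257, edgeR) that was -0.12 with the correction. Gdf11, a ligand of the activin receptors, was at 9.50 and 8.03 CPM in FLOX+GCI against 9.77 and 10.1 CPM in FBN-ARO-KO+GCI, with a log2 fold change of 0.18 (SE 0.15, adjusted p = 0.540, edgeR), 0.23 with the correction and 0.06 without FLOX+GCI replicate 2. Inhbc and Gdf1 had no count in any library, and Inhbe and Gdf3 had too few to be tested. Gdf1 shares exon positions with Lass1 on the same strand. Their reads cannot be told apart, so the lack of counts does not show that Gdf1 is absent.

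Thbs1 (chr2:117937612-117952869, plus strand, mm9) encodes thrombospondin-1, a matrix protein that releases TGF-β from its latent form and that astrocytes secrete to promote synapses. It had 136 and 74 counts for FLOX+GCI against 104 and 64 for FBN-ARO-KO+GCI, or 5.43 and 3.002 CPM in FLOX+GCI replicates 1 and 2 and 3.14 and 2.18 CPM in FBN-ARO-KO+GCI replicates 1 and 2. FBN-ARO-KO+GCI replicate 1 lay just above FLOX+GCI replicate 2, so that the groups overlapped, and in each group replicate 1 was the higher. The fitted log2 fold change was -0.66 (SE 0.33, 95% interval -1.43 to 0.11, adjusted p = 0.353, edgeR) and -0.69 with the correction. FLOX+GCI replicate 1 decides its size: the value was -0.17 (adjusted p = 0.843, edgeR) without that library and -1.02 (adjusted p = 0.112, edgeR) without FLOX+GCI replicate 2.

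Of the 11 other genes of latency and activation, 9 were tested, 3 were higher and 6 lower, with a median log2 fold change of -0.24 against -0.01 over all genes, and none was called. An unadjusted p under 0.05 and a lower level was found for 3 of them, against 7.82% of all genes. Ltbp3, a protein that holds latent TGF-β in the matrix, was at 20.0 and 20.5 CPM in FLOX+GCI replicates 1 and 2 and 14.7 and 13.0 CPM in FBN-ARO-KO+GCI replicates 1 and 2. The groups were apart by more than the spread within either of them, with a log2 fold change of -0.55 (SE 0.12, 95% interval -0.83 to -0.27, adjusted p = 0.238, edgeR) and -0.33 (adjusted p = 0.367, edgeR) with the correction. It shares exon positions with a gene on the opposite strand, and how the counting treated strand is not given in the sources used here, so their reads cannot be told apart. Thbs2, the close relative of Thbs1, was at 8.02 and 6.57 CPM in FLOX+GCI replicates 1 and 2 and 5.37 and 3.82 CPM in FBN-ARO-KO+GCI replicates 1 and 2. Its libraries did not overlap, with a log2 fold change of -0.66 (SE 0.22, adjusted p = 0.248, edgeR) and -0.72 with the correction.

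The receptors of the 10 genes leaned in opposite directions and neither passed the test. Tgfbr1 (chr4:47366094-47427803, plus strand, mm9), the type I receptor that phosphorylates Smad2 and Smad3, was at 28.0 and 23.6 CPM in FLOX+GCI replicates 1 and 2 and 27.4 and 37.2 CPM in FBN-ARO-KO+GCI replicates 1 and 2. FBN-ARO-KO+GCI replicate 2 was above the other 3 libraries, among which both groups were mixed. The log2 fold change was 0.32 (SE 0.16, 95% interval -0.06 to 0.70, adjusted p = 0.355, edgeR). It was 0.09 without FBN-ARO-KO+GCI replicate 2 (adjusted p = 0.936, edgeR) and 0.11 with the correction, and its transcript, at 41.0% GC, was the poorest in G and C of the 10.

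Tgfbr2 (chr9:115993415-116084383, minus strand, mm9), the type II receptor that binds the ligand, was at 30.1 and 24.1 CPM in FLOX+GCI replicates 1 and 2 and 24.1 and 22.3 CPM in FBN-ARO-KO+GCI replicates 1 and 2. FLOX+GCI replicate 1 was the highest, and FLOX+GCI replicate 2 and FBN-ARO-KO+GCI replicate 1 were nearly equal. This gave a log2 fold change of -0.22 (SE 0.13, 95% interval -0.53 to 0.09, adjusted p = 0.410, edgeR), -0.05 without FLOX+GCI replicate 1 and -0.26 with the correction.

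Of the 7 other receptors all were tested, 3 were higher and 4 lower and none was called by edgeR. Acvr2a, a type II receptor of activin, was at 58.9 and 50.2 CPM in FLOX+GCI replicates 1 and 2 and 65.2 and 81.4 CPM in FBN-ARO-KO+GCI replicates 1 and 2. Both FBN-ARO-KO+GCI values lay above both FLOX+GCI values, with a log2 fold change of 0.43 (SE 0.13, 95% interval 0.13 to 0.73, adjusted p = 0.245, edgeR). DESeq2, which called Acvr2a alone of the 3 of these 7 that had a p adjusted by it, gave an adjusted p of 0.0489, while the correction brought the log2 fold change to 0.19, its transcript being at 39.9% GC. Acvr2a shares exon positions with Orc4 on the opposite strand. Acvr1c, a type I receptor for activin-like ligands, was at 23.2 and 41.9 CPM in FLOX+GCI replicates 1 and 2 and 18.9 and 27.1 CPM in FBN-ARO-KO+GCI replicates 1 and 2, so that in each group replicate 2 was the higher and the groups overlapped. Its log2 fold change was -0.50 (SE 0.28, adjusted p = 0.388, edgeR), and -0.75 with the correction. FLOX+GCI replicate 2 decides its size, since it was -0.02 without that library, while without FLOX+GCI replicate 1 it was -0.87 and called (adjusted p = 0.023, edgeR). Acvr1c overlaps the transcript Gm13544 on the opposite strand.

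The Smads of the 10 genes were, as counted, at near-equal levels in both genotypes. Smad3 (chr9:63494574-63605801, minus strand, mm9), the transducer, was at 98.8 and 111 CPM in FLOX+GCI replicates 1 and 2 and 96.5 and 111 CPM in FBN-ARO-KO+GCI replicates 1 and 2. In each group replicate 2 was higher than replicate 1, and the groups covered nearly the same range. The log2 fold change was -0.01 (SE 0.10), and its interval, -0.24 to 0.21, is the range of differences these libraries leave. The adjusted p was 0.950 (edgeR), and the log2 fold change was 0.03 with the correction.

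Smad7 (chr18:75527183-75555589, plus strand, mm9), the inhibitor that TGF-β signaling induces, was at 17.9 and 19.1 CPM in FLOX+GCI replicates 1 and 2 and 18.3 and 18.8 CPM in FBN-ARO-KO+GCI replicates 1 and 2. The 4 libraries differed less, relative to their level, than for any other of the 10 genes, with the FBN-ARO-KO+GCI libraries inside the range of FLOX+GCI. This gave a log2 fold change of 0.003 (SE 0.11, 95% interval -0.25 to 0.26, adjusted p = 0.993, edgeR). The sign of so small a value changes with the scaling of the libraries, and it was -0.03 with library totals alone and 0.15 with the correction. Signs under other settings also differ for Smad3, Tgfb3 and Inhba, and none of these genes has a settled direction.

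Of the other Smads and cofactors, 5 of 6 were tested, 4 higher and 1 lower, and none was called. Tab1, a partner of the kinase TAK1 in the Smad-independent arm, was at 29.8 and 30.9 CPM in FLOX+GCI against 26.8 and 23.4 CPM in FBN-ARO-KO+GCI, with a log2 fold change of -0.28 (SE 0.11, adjusted p = 0.274, edgeR) that was -0.09 with the correction. Map3k7, which encodes TAK1, was at 54.8 and 59.4 CPM in FLOX+GCI against 63.3 and 63.8 CPM in FBN-ARO-KO+GCI, with a log2 fold change of 0.16 (SE 0.08, adjusted p = 0.370, edgeR) that was 0.04 with the correction. Both libraries of a group lay on the same side for each of these genes, Tab1 lower and Map3k7 higher, as for 51.8% of all genes.

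The 10 other intracellular inhibitors were all tested, with 5 higher, 5 lower and none at an unadjusted p under 0.05. The ubiquitin ligases Nedd4l and Smurf2, which act on Smads and on the receptors, had the smallest p. Nedd4l was at 213 and 235 CPM in FLOX+GCI against 251 and 253 CPM in FBN-ARO-KO+GCI and Smurf2 at 40.7 and 38.8 CPM in FLOX+GCI against 44.1 and 46.5 CPM in FBN-ARO-KO+GCI. Neither overlapped between groups, as for 51.8% of all genes, with log2 fold changes of 0.17 (adjusted p = 0.311, edgeR) and 0.19 (adjusted p = 0.322, edgeR), and 0.08 and 0.11 with the correction. Among the 7 extracellular inhibitors, 1 was higher and 6 lower and none was called. Bgn, the proteoglycan biglycan that binds TGF-β, was at 32.5 and 22.3 CPM in FLOX+GCI replicates 1 and 2 and 22.2 and 16.3 CPM in FBN-ARO-KO+GCI replicates 1 and 2. FLOX+GCI replicate 2 and FBN-ARO-KO+GCI replicate 1 were nearly equal, and the log2 fold change was -0.51 (SE 0.21, adjusted p = 0.289, edgeR) and -0.44 with the correction. It was -0.21 without FLOX+GCI replicate 1, and -0.75 and called without FLOX+GCI replicate 2 (adjusted p = 0.049, edgeR). Lefty2, an antagonist of Nodal, was at 1.52 and 0.730 CPM in FLOX+GCI against 0.603 and 0.683 CPM in FBN-ARO-KO+GCI, from 18 to 38 counts, with a log2 fold change of -0.80 (SE 0.44, adjusted p = 0.388, edgeR) and -0.75 with the correction. FLOX+GCI replicate 1 decides its size, with -0.18 without that library and -1.24 without FLOX+GCI replicate 2.

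**Figure D2:**
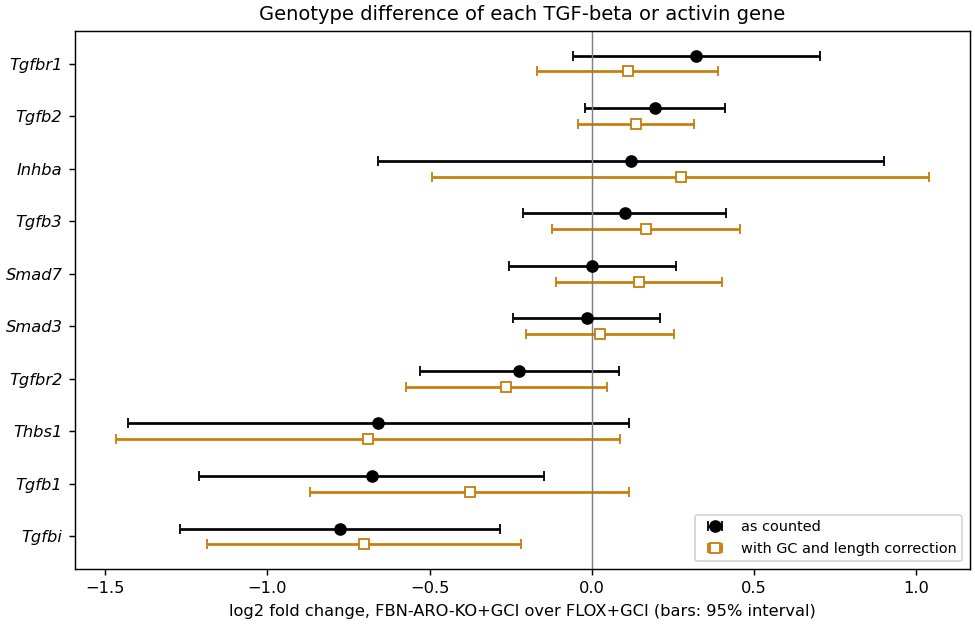
Log2 fold change of FBN-ARO-KO+GCI over FLOX+GCI for each of the 10 genes, with 95% intervals, as counted (black) and corrected for transcript GC content and length (orange). As counted, the intervals of Tgfb1 and Tgfbi lie below 0, and with the correction that of Tgfbi alone does.

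The target gene of the 10, Tgfbi (chr13:56710920-56740923, plus strand, mm9), encodes a matrix protein that TGF-β induces and that binds integrins. It had 135 and 107 counts for FLOX+GCI against 93 and 84 for FBN-ARO-KO+GCI, although the FBN-ARO-KO+GCI libraries were the deeper ones. These were 5.39 and 4.34 CPM in FLOX+GCI replicates 1 and 2 and 2.81 and 2.87 CPM in FBN-ARO-KO+GCI replicates 1 and 2. The FBN-ARO-KO+GCI libraries were nearly equal and both below FLOX+GCI. The means were 4.86 ± 0.740 CPM in FLOX+GCI and 2.84 ± 0.0439 CPM in FBN-ARO-KO+GCI (SD, n = 2 each). The log2 fold change was -0.78 (SE 0.21, 95% interval -1.27 to -0.28, adjusted p = 0.238, edgeR), a fitted level of 0.583 times that of FLOX+GCI. It was -0.70 (adjusted p = 0.360, edgeR) with the correction and between -0.93 and -0.61 without each library in turn.

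The other targets of the pathway, a list of 15 that were all tested, had 13 genes lower and 2 higher in FBN-ARO-KO+GCI. Their median log2 fold change was -0.58 as counted and -0.52 with the correction, against -0.01 and 0.03 over all genes, and none was called by edgeR. DESeq2 called 2, Fn1 and Junb, of the 4 to which it gave an adjusted p, and gave none to the other 11, Cyr61 among them. An unadjusted p under 0.05 and a lower level was found for 4 of the 15, against 7.82% of all genes, and the groups did not overlap for 6, all lower, against 25.8% of all genes. The list was drawn up with earlier results of these data known, so these shares are a description and not a test. Summed over the 16 targets with Tgfbi, the level was 389 and 295 CPM in FLOX+GCI and 279 and 188 CPM in FBN-ARO-KO+GCI. Replicate 2 was the lower library in both groups for 9 of the 15, against 21.7% of all genes tested.

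Cyr61, a matrix protein also induced by mechanical signals, was at 8.42 and 7.38 CPM in FLOX+GCI replicates 1 and 2 and 3.20 and 2.53 CPM in FBN-ARO-KO+GCI replicates 1 and 2. This was the smallest p of the pathway, with a log2 fold change of -1.46 (SE 0.20, 95% interval -1.93 to -0.99, adjusted p = 0.174, edgeR) and -1.38 with the correction. It was called without FLOX+GCI replicate 1 (adjusted p = 0.015, edgeR) or 2 (adjusted p = 0.004, edgeR), as Junb was without FLOX+GCI replicate 2 (adjusted p = 0.001, edgeR), and neither without a FBN-ARO-KO+GCI library. Junb, a transcription factor of the AP-1 family that neuronal activity also induces, was at 57.6 and 44.6 CPM in FLOX+GCI replicates 1 and 2 and 31.8 and 28.5 CPM in FBN-ARO-KO+GCI replicates 1 and 2. Both libraries of FBN-ARO-KO+GCI were below both of FLOX+GCI for each gene, and for Junb the log2 fold change was -0.76 (SE 0.14, 95% interval -1.08 to -0.44, adjusted p = 0.238, edgeR) and -0.44 with the correction, its transcript being at 62.6% GC.

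The other targets described here were chosen after their values were seen. Fn1, fibronectin, was at 99.1 and 76.1 CPM in FLOX+GCI replicates 1 and 2 and 65.8 and 51.8 CPM in FBN-ARO-KO+GCI replicates 1 and 2, with no overlap. The collagen chain Col1a2 was at 36.7 and 13.8 CPM in FLOX+GCI replicates 1 and 2 and 17.9 and 4.44 CPM in FBN-ARO-KO+GCI replicates 1 and 2, and the smooth muscle actin Acta2 at 59.4 and 25.1 CPM in FLOX+GCI against 44.7 and 11.5 CPM in FBN-ARO-KO+GCI. For both of these, FLOX+GCI replicate 1 was the highest and FBN-ARO-KO+GCI replicate 2 the lowest, and the groups overlapped. Ctgf, a relative of Cyr61, was at 19.4 and 14.5 CPM in FLOX+GCI against 18.9 and 15.6 CPM in FBN-ARO-KO+GCI, with a log2 fold change of 0.02 (95% interval -0.38 to 0.42, edgeR) and 0.08 with the correction. Fn1 and Ctgf each share exon positions with a gene on the opposite strand.

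Levels of stromal cell markers are given beside these targets. The 6 markers of fibroblasts and meninges summed to 262 and 116 CPM in FLOX+GCI and 156 and 57.7 CPM in FBN-ARO-KO+GCI, and all 6 were lower in FBN-ARO-KO+GCI, 2 with an unadjusted p under 0.05 where 7.82% of all genes were lower with such a p, and none called. With the correction 0 of the 6 had an unadjusted p under 0.05. The groups overlapped for 5 of the 6, while 51.8% of all genes did not overlap. The 5 mural cell markers summed to 111 and 81.6 CPM in FLOX+GCI against 88.0 and 65.0 CPM in FBN-ARO-KO+GCI, and the 5 endothelial markers to 242 and 186 against 213 and 165 CPM. In each of these lists 4 markers were lower and 1 higher in FBN-ARO-KO+GCI. The groups overlapped for 3 of the mural and all 5 of the endothelial markers. The sum of each list was higher in replicate 1 than in replicate 2 of each group. So was the level of 4 of the 10 genes, Tgfb1, Tgfb3, Thbs1 and Tgfbr2, against 21.7% of all genes tested. No marker of these lists was at 0. The part of stromal cells in the levels of Tgfb1, Thbs1, Tgfbi and the target list was not tested.

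The 6 microglial markers, of cells that make TGF-β1, summed to 371 and 341 CPM in FLOX+GCI and 344 and 395 CPM in FBN-ARO-KO+GCI, so that the groups overlapped, and 3 were higher and 3 lower. Of 6 markers of monocytes, neutrophils and border macrophages only Cd163, named after its value was seen, was tested. It was at 2.63 and 1.95 CPM in FLOX+GCI against 1.42 and 1.16 CPM in FBN-ARO-KO+GCI. For Cd163 the fitted change in log2 was -0.82 (adjusted p = 0.258, edgeR) and -0.87 with the correction. The whole list summed to 3.91 and 2.68 CPM in FLOX+GCI and 2.32 and 2.77 CPM in FBN-ARO-KO+GCI, so that the groups overlapped. The lower Cd163 does not stand for the list. The part of these cells in the levels of Tgfb1 and Tgfbi was not tested.

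**Figure D3:**
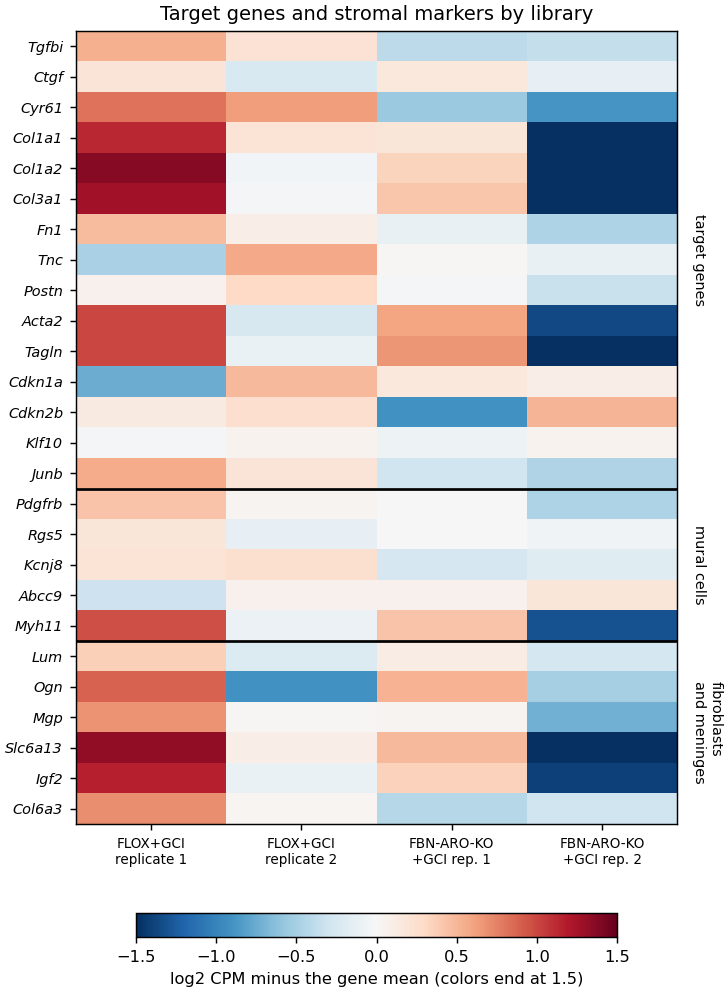
Log2 CPM of 15 of the 16 target genes and of each marker of mural cells and of fibroblasts and meninges, minus the mean of the gene over the 4 libraries, with red for higher, blue for lower and colors ending at 1.5. FLOX+GCI replicate 1 is the highest and FBN-ARO-KO+GCI replicate 2 the lowest for Col1a2, Acta2, Cyr61 and Junb. The genotypes overlap for Col1a2 and Acta2 and are apart for Cyr61, Junb and Tgfbi.

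Over all 65 other pathway genes in the files, 58 were tested, of which 20 were higher and 38 lower and none was called by edgeR. DESeq2 called 3 of the 22 to which it gave an adjusted p. An unadjusted p under 0.05 was found for 1 higher and 10 lower genes, 19.0% of the 58 against 16.5% of all genes. Their median log2 fold change was -0.20 as counted and -0.11 with the correction. There was no overlap between groups for 9 higher and 18 lower genes of the 58, against 51.8% of all genes (25.9% higher and 25.8% lower).

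**Figure D4:**
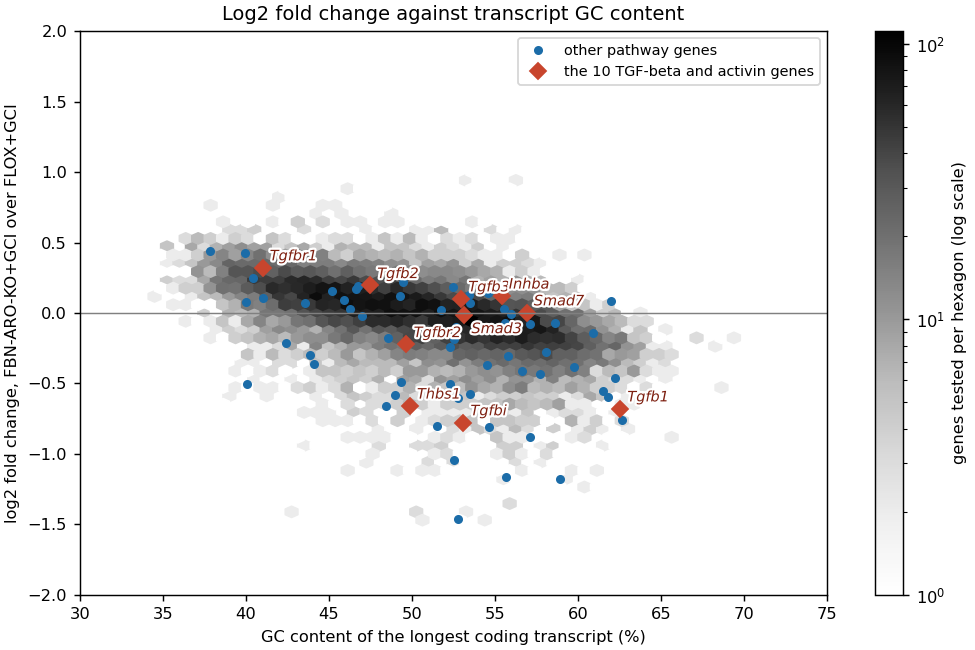
Log2 fold change of FBN-ARO-KO+GCI over FLOX+GCI against the GC content of the longest coding transcript (%), with gray hexagons for the number of genes tested (log scale), blue points for the other pathway genes and red diamonds for the 10 genes. The cloud slopes down with GC content; Tgfbr1 and Tgfb2 lie along it at the low end, Tgfb1 lies below it at the high end, and Thbs1 and Tgfbi lie below it in the middle. Beyond the axis are 13 genes.

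Likeness of pattern was measured as the root mean square difference, over the 4 libraries, of each gene's log2 CPM from its own mean, among 13430 genes over 1 CPM in mean. Nearest to Tgfbi were Scand1 (0.0443), Adamts13 (0.0530), C1qtnf1 (0.0600), with the difference in log2 in parentheses. Nearest to Tgfb1 were Tph2 (0.0270), Lef1 (0.0369), Akap12 (0.0370). Scand1 was at 4.91 and 3.98 CPM in FLOX+GCI and 2.53 and 2.42 CPM in FBN-ARO-KO+GCI, and Akap12, the most abundant of the 6, at 34.4 and 28.3 CPM in FLOX+GCI and 21.0 and 18.5 CPM in FBN-ARO-KO+GCI.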

How the data were processed

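RNA of the hippocampus was sequenced as 50 nt single-end reads from 4 libraries, 2 in each group. Per the labels and the study's methods, the authors combined the runs of a sample, demultiplexed them with bcl2fastq, aligned them to mm9 with TopHat2 2.0.8b and counted reads per gene symbol with HTSeq. The authors deposited raw counts, with no scaling. The annotation, the strand setting and the version of HTSeq are not given in the sources used here. Lines that count unassigned reads, 43.4% to 45.5% of each file, were left out. Of the target list, 1 gene enters the counts, medians and sums and is not reported here by itself.

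Genotype was the only term of edgeR 4.0.16 (R 4.3.3, limma 3.58.1), with TMM scaling, filterByExpr (minimum count 10), the quasi-likelihood test and Benjamini-Hochberg adjustment at 0.05 over 14527 genes. The correction for GC content and transcript length fits natural splines (5 degrees of freedom) per library and enters as an offset. Patterns were compared as log2(CPM + 0.1). Positions, exon lengths and GC content came from GENCODE M1 on NCBIM37, the build of mm9, where 21430 symbols had a single locus and all 10 genes matched. Nrros was matched as Lrrc33.

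The 10 genes and all gene lists were chosen with earlier results of these data known. Named beside the 10 were, in each role of the pathway list, any gene called and the 2 with the smallest unadjusted p, and the 3 genes nearest in pattern to Tgfb1 and to Tgfbi; any other gene is marked as chosen after its values were seen. Alternatives were DESeq2 size factors, library totals, a filter at 1 count in any library or at a mean of 50, DESeq2 1.42.0, the likelihood ratio test, a block on replicate number, the correction with and without it, and each library left out. The fits were run on simulated counts with the same spread set for every gene, which does not test them at the spread of these libraries. The libraries of a group were no duplicates, with a chi-square per degree of freedom of 10.8 and 12.8.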

Additional observations from a re-analysis of the deposited data

How the results depend on the processing

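None of the 10 genes was called under any of the 13 alternatives, of which DESeq2 gave an adjusted p to 4 of the 10 only. The number of genes called over all genes, 2, was 5 with every gene of at least 1 count, 279 with DESeq2, 294 with the likelihood ratio test, 184 with the replicate block and 0 to 193 without each library in turn. Of the 10 genes, the 2 with an unadjusted p under 0.05 became 1 with DESeq2, 1 with the GC and length correction and 1 to 5 without each library, 5 being without FLOX+GCI replicate 2. Of 68 pathway genes tested, the 10 included, 13 had an unadjusted p under 0.05, and 24 did with the replicate block, 21 with the correction and the block, and 7 to 28 without each library (28 without FLOX+GCI replicate 2, 21 without FBN-ARO-KO+GCI replicate 1 and 7 without FBN-ARO-KO+GCI replicate 2). None of the 68 was called as reported, 3 with DESeq2, 5 with the likelihood ratio test, 8 with the replicate block and 0 to 6 without each library (4 without FLOX+GCI replicate 1 and 6 without FLOX+GCI replicate 2). The cause was not tested. Where a library is left out, the lone sample of its group is assumed to vary like the other group.

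The sign turned for 4 of 24 named genes. Smad3 was 0.0261 with the correction, 0.0238 with the correction and the block, and -0.116 to 0.0789 without each library. Smad7 was -0.0335 with library totals, -0.00296 with a mean of at least 50 counts and -0.0415 to 0.0463 without each library, Tgfb3 -0.0184 to 0.232 and Inhba -0.304 to 0.727. Of 311 values of named genes under the alternatives, 276 kept direction and side of the threshold, 10 reversed, 12 became called and 13, all with DESeq2, had no adjusted p and so no side of the threshold.

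No source says that libraries with the same replicate number were handled together. Over the genes tested, the deviations of the replicate 1 libraries from their group means correlated at 0.129. With 2 libraries per group, those of replicate 2 mirror them, so this is a single value. Whether the numbers mark a shared handling was not tested. The 8 pathway genes called with the replicate block were all targets, among them Cyr61, Junb, Fn1, Acta2, Col1a1, Col1a2 and Col3a1, and the block changed no call of the 10 genes. Calls with the block were not confined to targets. They included 3 of the 6 fibroblast and meninges markers, 1 of the 5 mural and 0 of the 5 endothelial markers, and 184 of all 14527 genes. With the correction and the block none of the 68 was called, and 3 over all genes were. With 3 counts as the floor, depth limits the detection of none of the 10, of which Inhba had the fewest counts, 54 in 1 library. The floor does not cover precision, and Inhba and Thbs1 had the largest SE of the 10, 0.33 each.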

Other observations

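The bone morphogenetic protein (BMP) branch, which shares Smad4 with TGF-β and activin and type II receptors with activin but signals through Smad1, Smad5 and Smad9, was examined as a list of 19 genes. All 19 were tested, of which 10 were lower in FBN-ARO-KO+GCI and 9 higher, with a median log2 fold change of -0.02 and none called. With the replicate block 2 of the 19 were called, against 184 of all 14527 genes. The transducers Smad1, Smad5 and Smad9 had log2 fold changes of 0.23, 0.08 and -0.03, and the target genes Id1, Id2, Id3 and Id4 of -0.20, -0.06, -0.27 and 0.32. The genes named next were chosen after their values were seen. The ligand Bmp6 was at 12.3 and 7.55 CPM in FLOX+GCI against 6.18 and 4.78 CPM in FBN-ARO-KO+GCI and Bmp7 at 12.7 and 7.06 CPM in FLOX+GCI against 6.999 and 2.66 CPM in FBN-ARO-KO+GCI, with FLOX+GCI replicate 1 the highest and FBN-ARO-KO+GCI replicate 2 the lowest for each. Their log2 fold changes were -0.85 (SE 0.26, adjusted p = 0.245, edgeR) and -1.02 (SE 0.44, adjusted p = 0.305, edgeR). The receptor Bmpr1a was at 68.8 and 65.6 CPM in FLOX+GCI against 76.7 and 83.4 CPM in FBN-ARO-KO+GCI, higher without overlap, with a log2 fold change of 0.25 (SE 0.08, adjusted p = 0.248, edgeR) that was 0.05 after correction for GC content. Bmp6 and Bmpr1a share exon positions with genes on the opposite strand.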
